A study of Mus musculus with 19 samples.

Results

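The chaperones and the genes of the unfolded protein response comprised 47 named genes, found in the count tables of the SCA17 knock-in series by their GENCODE M21 gene names. Each of the 47 names matched 1 of the 41128 genes in the tables, and all 47 were among the 16841 genes with enough counts to be tested. By the place where their proteins act, 20 members were cytosolic, 3 mitochondrial and 19 belonged to the endoplasmic reticulum (ER). The other 5 formed the transcription factor group of the stress response, which includes *Trib3*, a target of such factors and not itself one. The cytosolic group also held *Hsf1*, the factor that switches on heat shock genes.

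The study sequenced RNA of 3 brain regions, namely cerebellum, striatum and prefrontal cortex, from mice at 3 months of age in 19 libraries. WT mice gave 3 libraries per region, and SCA17 knock-in mice, abbreviated KI, gave 4 libraries from the cerebellum and 3 each from the other regions. KI mice carry a *Tbp* gene with an expanded polyglutamine tract in the germline, and TBP, the TATA box-binding protein, is used by every cell type. Their line came from heterozygous floxed mice crossed to EIIa-Cre mice and then to WT mice. WT mice were of the same age, and the paper names the strain C57BL/6 for its WT mice but no strain for KI mice. Both sexes were in use, each library is bulk tissue of a region rather than 1 cell type, and the labels do not say which libraries came from the same mouse.

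Libraries held 10639110 to 17431284 counts, with a median of 15082703. Markers of the labelled regions were present: granule cell markers summed to 3164 to 3928 CPM (counts scaled to a common library size with TMM factors) in the cerebellar libraries and 55.5 to 104 CPM elsewhere, and medium spiny neuron markers to 4664 to 10350 CPM in the striatum and 162 to 973 CPM elsewhere. The study took 3 to 4 mice per genotype, which are the numbers of libraries per group, so p-values measure the spread between libraries of what are likely separate mice.

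Proteins that fail to fold are met by separate systems in separate compartments. In the cytosol, the transcription factor HSF1 induces the HSP70, HSP90, HSP40 and small heat shock proteins, and this heat shock response is often examined in polyglutamine disease because the expanded tracts aggregate. In the ER, the sensors IRE1, PERK and ATF6 detect unfolded secretory proteins and act through XBP1, ATF4 and cleaved ATF6 to raise chaperones such as BiP, protein disulfide isomerases, degradation factors and the secreted factor MANF. The comparison of KI with WT in each region asks whether either response is visible in RNA at 3 months.

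Neither response reached the threshold. With edgeR's quasi-likelihood test and p-values adjusted by Benjamini-Hochberg over all tested genes, 0 of the 47 members passed an adjusted p of 0.05 in the cerebellum, where 0.831% of all tested genes passed. The count was also 0 in the striatum, against a background of 0.582%, and 0 in the prefrontal cortex, against 0.107%. At an unadjusted p under 0.05 there were 2 members in the cerebellum (4.26% of them, against 10.1% of all genes), 2 in striatum (against 8.12%) and 1 in prefrontal cortex (against 5.93%). KI libraries lay entirely on one side of the WT libraries for 2 members in the cerebellum, 5 in striatum and 3 in prefrontal cortex, where 12.3%, 14.1% and 8.69% of all genes did so. DESeq2 on the same 6 groups also called 0 members in each region.

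**Figure D1:**
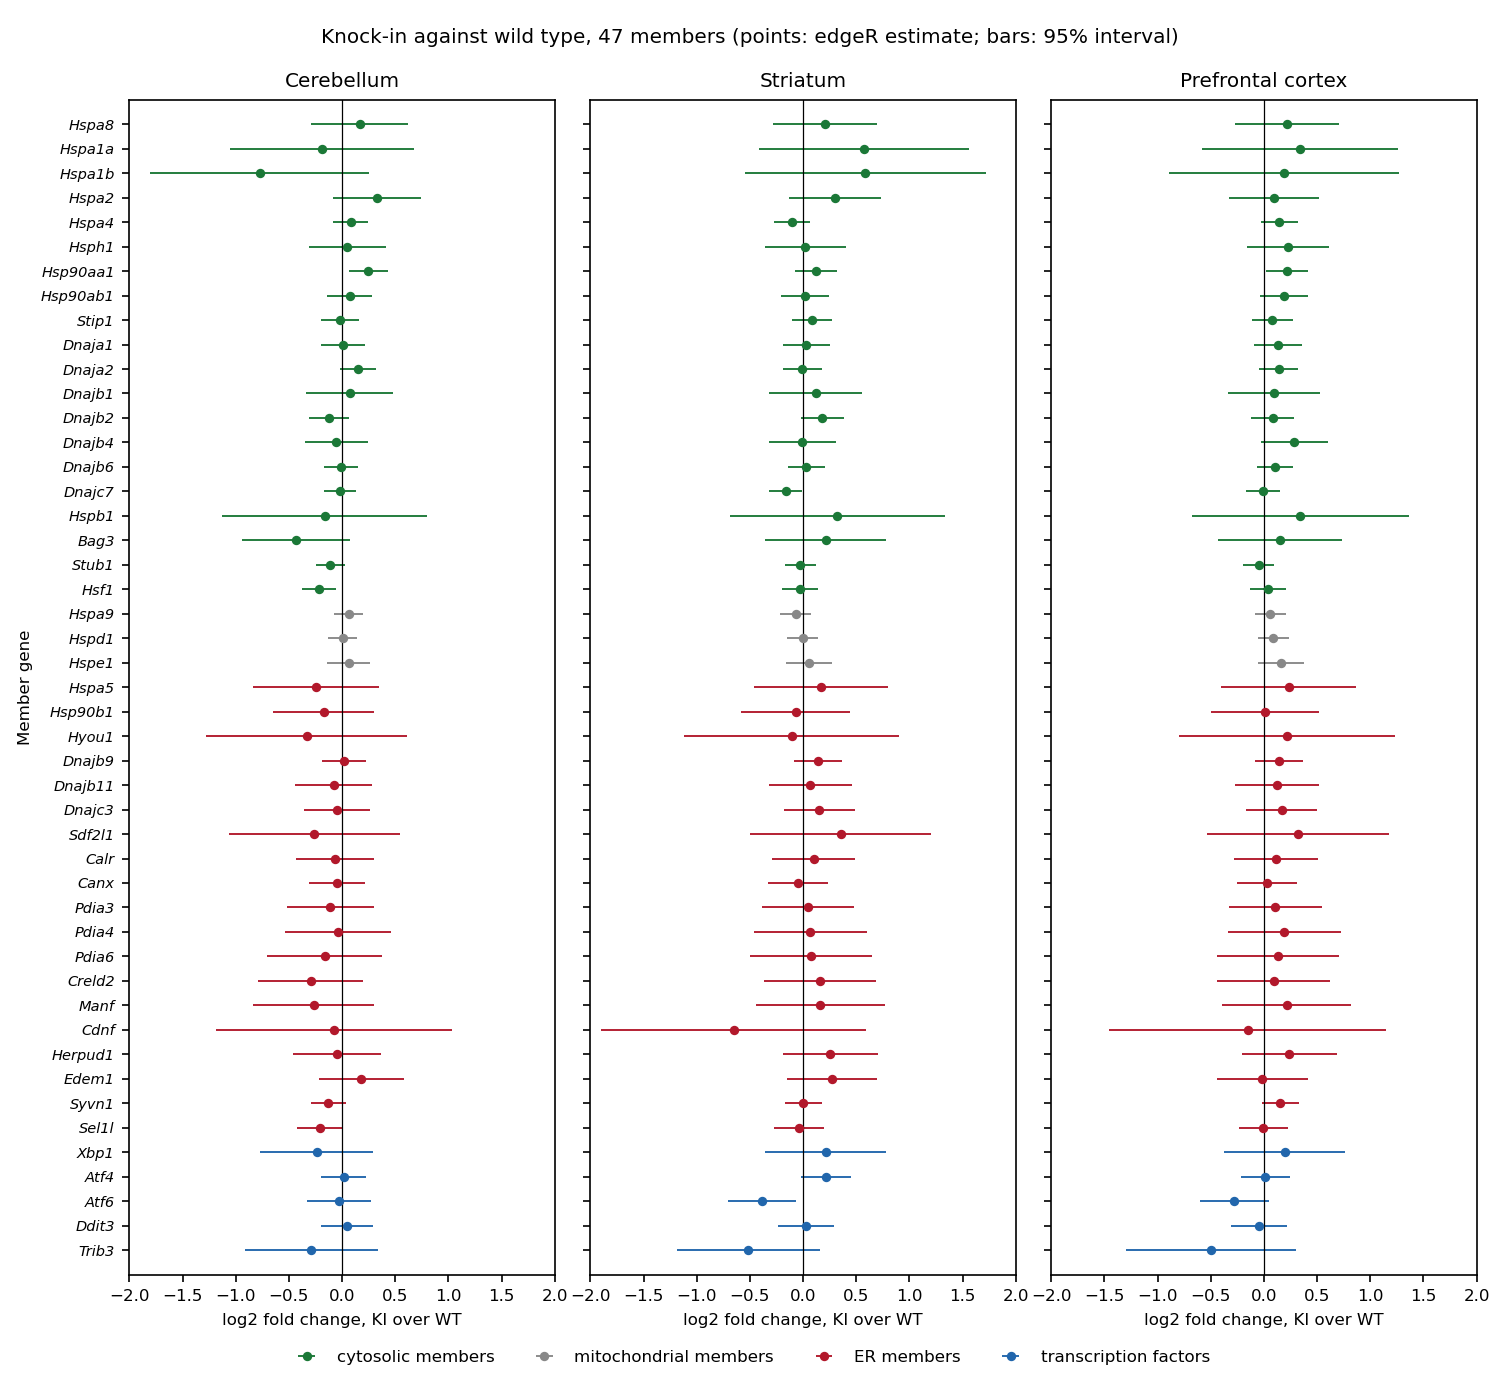
Log2 fold change of KI over WT (x axis) for each of the 47 members (y axis) in the cerebellum, striatum and prefrontal cortex, with points for the edgeR estimate and bars for the 95% interval, coloured by compartment. The cerebellar intervals of *Hspa1a*, *Hspa1b*, *Hspb1*, *Hyou1*, *Sdf2l1* and *Cdnf* reach past 2-fold, those of the 3 mitochondrial members stay within 1.5-fold, and 0 members passed the adjusted threshold in any region.

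The precision of these estimates differed among the members. The 95% interval of the KI effect stayed within a 2-fold change in either direction for 41 of 47 members in the cerebellum, 40 in striatum and 40 in prefrontal cortex. It stayed within a 1.5-fold change for 30, 28 and 28 members. In the cerebellum, the members whose intervals reached past 2-fold were *Hspa1a*, *Hspa1b*, *Hspb1*, *Hyou1*, *Sdf2l1* and *Cdnf*, and the same members with *Trib3* did so in the other 2 regions. Averaged over the regions, the interval of every one of the 47 members stayed within 2-fold.

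The cytosolic HSP90 member *Hsp90aa1*, the stress-inducible form of a chaperone that stabilizes kinases and hormone receptors, came closest to the threshold. In the cerebellum it measured 459, 421 and 382 CPM in the WT libraries and 499, 548, 496 and 456 CPM in the KI libraries. All but the lowest KI library exceeded every WT library. In the prefrontal cortex the WT libraries held 582, 529.6 and 486 CPM and the KI libraries 594, 675 and 593 CPM, without overlap, and in the striatum the values were 418, 375 and 374 against 426, 394 and 449.7 CPM. On the log2 scale KI exceeded WT by 0.25 ± 0.088 (SE) in the cerebellum (n = 3 WT and 4 KI, edgeR adjusted p = 0.289), 0.12 ± 0.094 in striatum (adjusted p = 0.818) and 0.22 ± 0.094 in prefrontal cortex (adjusted p = 0.792). The mean over the 3 regions was 0.20 ± 0.053, a 1.15-fold higher level, with an edgeR adjusted p of 0.0885, and DESeq2 gave 0.19 with an adjusted p of 0.0223. This was the only call that any test made of a member between genotypes: 0 members passed in the mean over regions by edgeR, where 1.35% of all tested genes did and 12.3% had an unadjusted p under 0.05. Both fits of the mean treated libraries as independent. Striatal and prefrontal libraries of the same number may come from the same mice, so the standard errors of the mean may be too small. The constitutive partner of *Hsp90aa1*, *Hsp90ab1*, measured 0.073, 0.018 and 0.19 in the cerebellum, striatum and prefrontal cortex on the log2 fold change scale, with an adjusted p of at least 0.892 in each.

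The HSP70 members gave no called difference. *Hspa8*, the constitutive HSC70, had log2 fold changes of 0.16 ± 0.22 in the cerebellum, 0.21 ± 0.23 in striatum and 0.21 ± 0.23 in prefrontal cortex, and its WT libraries in the cerebellum ranged from 969 to 1793 CPM. The inducible HSP70 genes *Hspa1a* and *Hspa1b* sit on chromosome 17 with near-identical coding sequence, so reads from them may have been split between them or lost, and their separate values are uncertain. *Hspa1b* measured 11.9, 2.95 and 2.27 CPM in the WT cerebellum and 4.17, 3.99, 2.91 and 2.36 CPM in the KI cerebellum, where WT replicate 1 alone was high. Summed as 1 gene, the pair differed between genotypes by -0.53 ± 0.43 on the log2 scale in the cerebellum, 0.58 ± 0.47 in striatum and 0.24 ± 0.45 in prefrontal cortex. *Hsph1*, which helps HSP70 release its nucleotide, stood at 0.051 in the cerebellum, 0.023 in striatum and 0.23 in prefrontal cortex.

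Among the other cytosolic members, *Hsf1* showed the smallest unadjusted p in a region. Its cerebellar libraries held 84.1, 77.6 and 79.7 CPM in WT and 62.7, 69.2, 73.7 and 71.1 CPM in KI, and the groups did not overlap, as they did not for *Stub1*, the ubiquitin ligase CHIP, the other cerebellar member without overlap (log2 fold change -0.11 ± 0.065). The log2 fold change of *Hsf1*, -0.22 ± 0.074, had an edgeR adjusted p of 0.255. In the striatum it was -0.030 ± 0.080 and in the prefrontal cortex 0.038 ± 0.080. The small heat shock protein gene *Hspb1* ranged from 3.47 to 14.1 CPM among the WT cerebellar libraries and from 4.71 to 9.96 CPM among the KI ones, with a log2 fold change of -0.17 ± 0.46. *Dnajb1*, the HSP40 partner of HSP70 and a common readout of HSF1 activity, had log2 fold changes of 0.071 ± 0.19, 0.12 ± 0.21 and 0.096 ± 0.20 in the cerebellum, striatum and prefrontal cortex. *Dnajc7*, another HSP40 co-chaperone, measured 228, 245 and 255 CPM in the WT striatum and 209, 238 and 203 CPM in the KI striatum, a log2 fold change of -0.16 ± 0.076 (adjusted p = 0.587) with overlapping groups.

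Other members without overlap were *Hspa2*, *Dnajb2* and *Edem1*, higher in the KI striatum, and *Dnajb4* and *Hspe1*, higher in the KI prefrontal cortex. *Hspa2* measured 49.9, 49.4 and 42.8 CPM in the WT and 60.7, 56.2 and 58.2 CPM in the KI striatum (log2 fold change 0.30 ± 0.20, adjusted p = 0.773). *Dnajb4*, an HSP40, measured 104, 88.6 and 85.5 CPM in the WT and 107, 123 and 109 CPM in the KI prefrontal cortex (0.28 ± 0.15, adjusted p = 0.893). Neither adjusted p-value passed the threshold.

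The mitochondrial chaperones were precisely measured. *Hspa9*, the mitochondrial HSP70, measured 306, 301 and 304 CPM in the WT striatum and 286, 292 and 290.1 CPM in the KI striatum, without overlap, and its log2 fold change was -0.070 ± 0.069 there, 0.064 ± 0.065 in the cerebellum and 0.058 ± 0.069 in the prefrontal cortex. *Hspe1*, the partner of the chaperonin HSP60 that *Hspd1* encodes, had 0.16 ± 0.10 in the prefrontal cortex. The 95% intervals of all 3 mitochondrial members stayed within 1.5-fold in every region.

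The ER members that define the unfolded protein response varied between libraries of the same group, and no genotype difference passed. *Hspa5* encodes BiP, the HSP70 of the ER and the usual readout of ER stress. In the cerebellum it measured 990.4, 469.7 and 451.5 CPM in the WT libraries and 728, 471, 529.7 and 422 CPM in the KI libraries. In the striatum the values were 1129, 1051 and 603 CPM in WT and 860.3, 1053 and 1209 CPM in KI, and in the prefrontal cortex 875, 698 and 480.4 CPM in WT and 742, 808 and 860.5 CPM in KI. One WT library therefore stood above the rest in the cerebellum, and 1 WT library stood below the rest in each of the other regions. The log2 fold changes were -0.24 ± 0.28 in the cerebellum, 0.17 ± 0.30 in striatum and 0.23 ± 0.30 in prefrontal cortex, with edgeR adjusted p-values of at least 0.855.

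*Manf*, a secreted factor of the ER that protects neurons and is induced by ER stress, had its lowest library in common with *Hspa5* in all 6 groups and its highest in 5 of 6. Its WT cerebellar libraries held 61.6, 33.4 and 32.2 CPM and its KI cerebellar libraries 49.1, 31.4, 34.6 and 26.0 CPM. The WT and KI striatum held 59.7, 59.2 and 35.4 CPM and 42.2, 60.5 and 70.2 CPM, and the WT and KI prefrontal cortex 51.0, 44.8 and 30.7 CPM and 41.6, 54.5 and 50.6 CPM. Groups overlapped in all 3 regions. KI differed from WT on the log2 scale by -0.27 ± 0.27 in the cerebellum (95% interval -0.84 to 0.30, adjusted p = 0.824), 0.16 ± 0.29 in striatum (-0.44 to 0.77, adjusted p = 0.953) and 0.21 ± 0.29 in prefrontal cortex (-0.40 to 0.82, adjusted p = 0.981). These intervals leave room for a level in KI of 0.56 to 1.23 times WT in the cerebellum and of up to 1.77 times WT in the prefrontal cortex. *Cdnf*, the paralog of *Manf*, was scarce, between 0.300 and 2.23 CPM in every library, and its log2 fold changes of -0.077, -0.65 and -0.15 had standard errors of at least 0.525. *Hsp90b1*, the HSP90 of the ER known as GRP94, measured 528, 243 and 271 CPM in the WT cerebellum and 395, 288, 298 and 249 CPM in the KI cerebellum, and its log2 fold changes were -0.17 ± 0.23, -0.070 ± 0.24 and 0.0098 ± 0.24 in the cerebellum, striatum and prefrontal cortex.

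**Figure D2:**
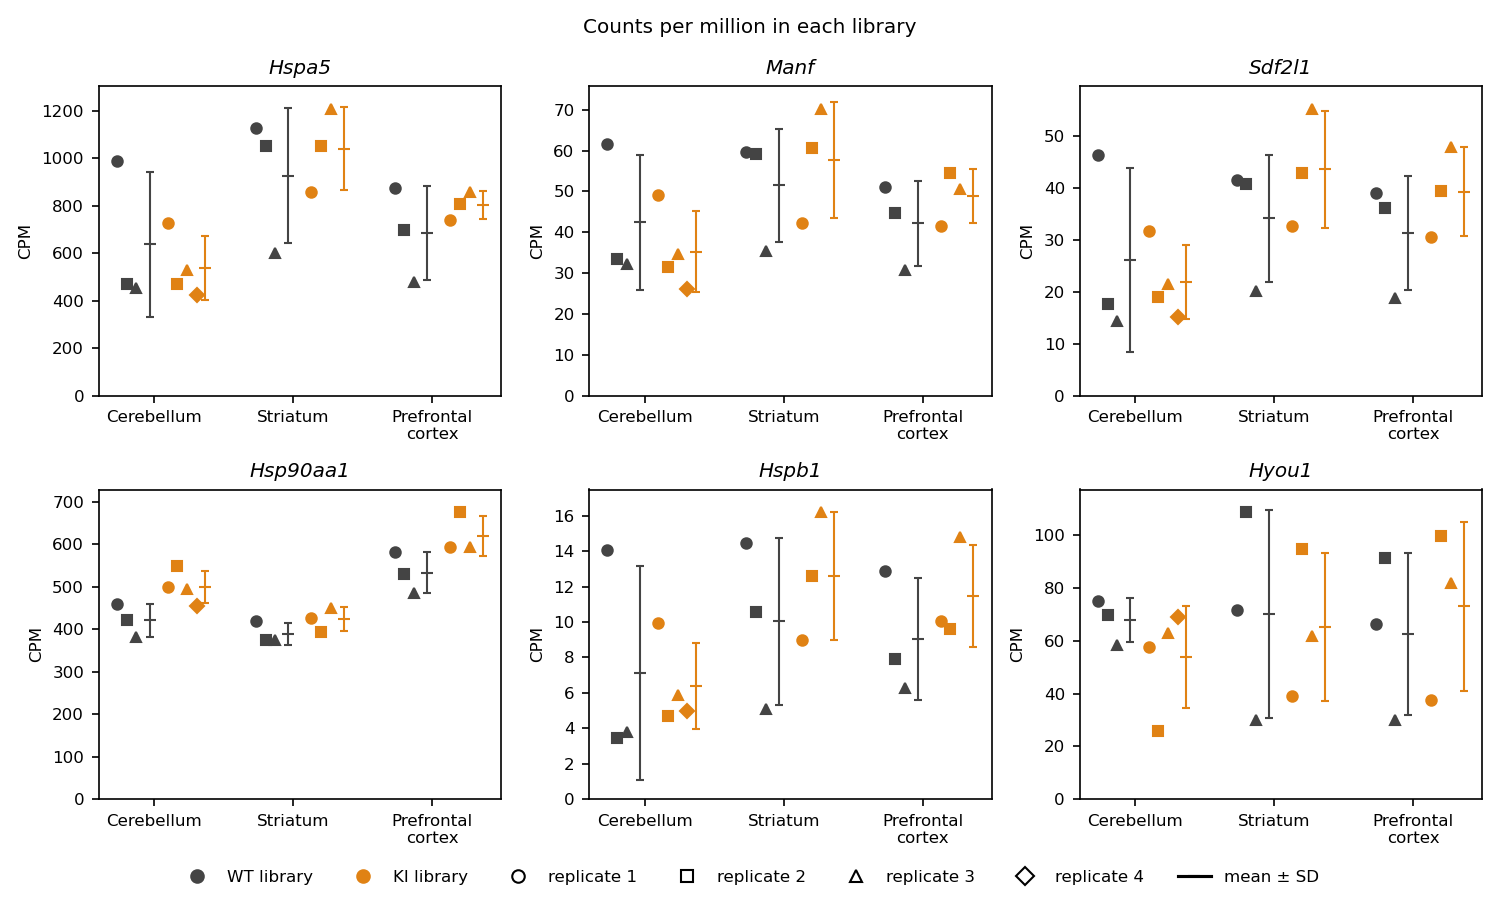
CPM (y axis) of *Hspa5*, *Manf*, *Sdf2l1*, *Hsp90aa1*, *Hspb1* and *Hyou1* in each WT and KI library of the cerebellum, striatum and prefrontal cortex (x axis), with the replicate number as the symbol and the mean ± SD beside the points. *Hspa5*, *Manf*, *Sdf2l1* and *Hspb1* share a high WT replicate 1 in the cerebellum and a low WT replicate 3 in the other regions, and *Hyou1* also has a low WT replicate 3 there, and a low KI replicate 2 in the cerebellum.

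The same libraries were extreme for most of the ER group. In the cerebellum, WT replicate 1 held the highest WT value for 18 of 19 ER members, where it did so for 36.4% of all tested genes. In the striatum, WT replicate 3 held the lowest WT value for 18 of 19, against 34.7% of all genes, and in the prefrontal cortex WT replicate 3 held the lowest for 18 of 19, against 35.2%. Among KI libraries, replicate 1 of the cerebellum held the highest value for 17 of 19 ER members, against 28.1% of all genes, replicate 3 of the striatum for 13, against 30.1%, and replicate 3 of the prefrontal cortex for 11, against 32.3%. Taking *Hspa5* as the reference, a choice made after its values were seen, 15 of the 18 other ER members had their highest value in the same library as *Hspa5* in at least 4 of the 6 groups, as did 9.91% of all genes. *Hsp90b1*, *Dnajb11*, *Sdf2l1* and *Pdia3* did so in all 6 groups. The 6 groups are not 6 independent observations, because striatal and prefrontal libraries of the same number may come from the same mice.

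Cytosolic members shared part of this order, and 12 of 20 had their highest library in common with *Hspa5* in at least 4 of the 6 groups. WT replicate 1 of the cerebellum was highest for 18 of 20 cytosolic members and WT replicate 3 of the prefrontal cortex lowest for 15 of 20, while WT replicate 3 of the striatum was lowest for 11 of 20. *Hsph1* and *Hspb1* had their highest library in common with *Hspa5* in all 6 groups, and *Stub1*, *Dnajb2* and *Dnajb6* in 1 of 6. Of the 5 members of the transcription factor group, WT replicate 1 of the cerebellum was highest for 2. WT replicate 3 was lowest for 2 in the striatum and for 3 in the prefrontal cortex.

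The library-to-library spread of the ER members was large for genes of their level. The SD within groups, pooled over the 6 groups on the log2 scale, was 0.41 for *Hspa5*, a factor of 1.33 for 1 SD, where the median over 152 genes within 1.5-fold of its mean level was 0.13. It was 0.39 for *Manf*, against 0.14 for genes of similar level, and 0.56 for *Sdf2l1*, a subunit of the ER HSP40 complex, against 0.16. In total, 17 of 19 ER members exceeded the median of genes of similar level and 10 exceeded 90% of them. Of the 20 cytosolic members, 11 exceeded the median and 3 exceeded 90%. The exceptions in the ER group were *Dnajb9* and *Syvn1*, with pooled SDs of 0.13 and 0.092. The 3 mitochondrial chaperones, *Hspa9*, *Hspd1* and *Hspe1*, had pooled SDs of 0.072, 0.072 and 0.12, and *Xbp1* had 0.37.

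Several of the ER members carry the ER stress response element, a binding site of the ATF6 branch of the response, in their promoters, and the stretches are shown because they belong to the usual targets of this response. RefSeq promoter windows of 300 bases on GRCm38.p6, from 250 before to 50 after the start of transcription, were at hand for 39 of the 47 members. *Hspa8*, *Hsp90aa1*, *Hsp90ab1*, *Hsf1*, *Hspa9*, *Hyou1*, *Manf* and *Atf6* had no window and were not searched. The element ERSE, spelled CCAAT, then 9 bases of any kind, then CCACG, was searched on both strands. It was found in 8 of 17 ER members with a window, 0 of 16 cytosolic members and 0.137% of all 27025 genes with a window (0.119% of their 32851 windows). The related ERSE-II, spelled ATTGG, any base, then CCACG, on both strands, was found in *Herpud1* and *Dnajb11* and in 0.0444% of all genes (0.0365% of windows). No member window held both elements. In the stretches below, written 5′ to 3′ on the strand of the gene, capitals mark the element, which in *Calr* and *Creld2* lies in the reverse orientation.
Hspa5, chr2:34772020-34772048, + strand: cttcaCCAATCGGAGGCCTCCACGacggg
Calr, chr8:84847070-84847098, - strand: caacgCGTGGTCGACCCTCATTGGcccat
Hsp90b1, chr10:86705633-86705661, - strand: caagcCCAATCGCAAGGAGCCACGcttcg
Canx, chr11:50325795-50325823, - strand: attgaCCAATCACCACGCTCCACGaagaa
Pdia6, chr12:17266486-17266514, + strand: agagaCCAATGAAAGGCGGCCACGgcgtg
Dnajc3, chr14:118937822-118937850, + strand: cacaaCCAATCAGCGCCAACCACGacccg
Creld2, chr15:88819515-88819543, + strand: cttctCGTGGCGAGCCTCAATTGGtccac
Syvn1, chr19:6046527-6046555, + strand: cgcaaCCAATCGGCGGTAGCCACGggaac
Herpud1, chr8:94386372-94386392, + strand: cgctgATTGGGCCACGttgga

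The 8 genes with an ERSE differed in their spread between libraries, from a pooled SD of 0.092 for *Syvn1*, which encodes a ubiquitin ligase of ER-associated degradation, to 0.41 for *Hspa5*. *Calr* and *Canx*, the lectin chaperones, had 0.25 and 0.17, and *Pdia6*, a disulfide isomerase, had 0.37. The heat shock element, spelled GAA, any 2 bases, TTC, any 2 bases, then GAA, was searched on both strands. Among the members with a window it was found in 4, *Hspd1*, *Hspe1*, *Dnajb6* and *Hsph1*, and in 0.662% of all genes (0.603% of windows). *Hspd1* and *Hspe1* start from a shared promoter on chromosome 1, and the matches found for the 2 genes overlap, each in the reverse orientation to its own gene and read on that gene's strand.
Hspd1, chr1:55088059-55088081, - strand: gggccTTCCGGAAGGTTCtagaa
Hspe1, chr1:55088054-55088076, + strand: gtccgTTCTAGAACCTTCcggaa

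The element spelled TGATG, any base, then AAT, searched on both strands as a target of ATF4, was in 0 member windows and 0.965% of all windows. These matches of letters were not tested for binding.

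**Figure D3:**
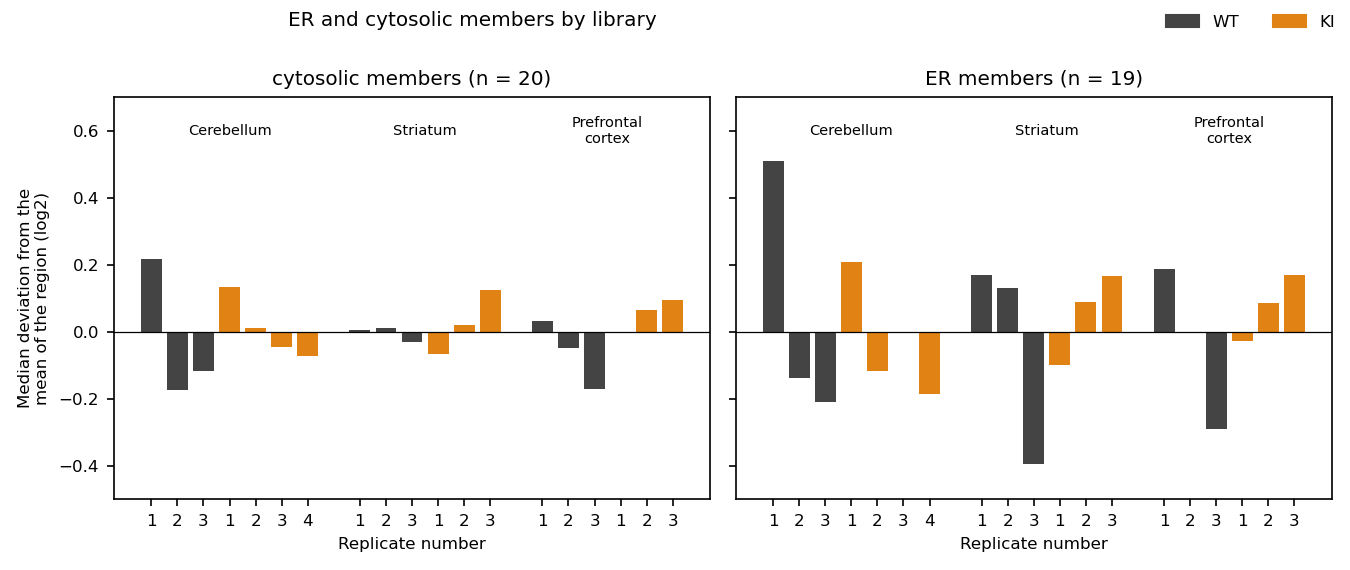
Median deviation of the 20 cytosolic and the 19 ER members from the mean of their region in each library (y axis, log2; x axis, replicate number within WT and KI of each region). ER members stand 0.51 above the regional mean in WT replicate 1 of the cerebellum and 0.39 below it in WT replicate 3 of the striatum. The cytosolic bars of these libraries are shorter, while in some other libraries they are longer than the ER bars.

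The direction of the ER group changed when single WT libraries were left out. When every library was kept, the ER members (n = 19) stood at -0.11 by median log2 fold change in the cerebellum, where 17 were negative, 0.074 in striatum, where 14 were positive, and 0.13 in prefrontal cortex, where 16 were positive. The median over all tested genes was 0.0073, -0.0073 and 0.0019. Without WT replicate 1 the cerebellar median of the ER members was 0.16 and 15 of 19 were positive. Without WT replicate 3 the striatal median was -0.066 with 5 positive, and without WT replicate 3 the prefrontal median was -0.0033 with 9 positive. With these 3 WT libraries left out together, 0 members passed the threshold in any region, and the smallest adjusted p of an ER member was 0.450.

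The cytosolic members had median log2 fold changes of -0.012 in the cerebellum, 0.058 in striatum and 0.14 in prefrontal cortex, with 9, 14 and 18 of 20 positive. Without WT replicate 1, the cerebellar median was 0.17, 15 of 20 were positive and 7 had an unadjusted p under 0.05, as did 10.3% of all tested genes in that fit, although 0 passed the adjusted threshold. The cerebellar log2 fold change of *Hsp90aa1* was then 0.31 (adjusted p = 0.209). WT replicate 1 held the highest WT value for 18 of the 20 cytosolic members, so leaving it out raises their estimates. The count of 7 is therefore no test of a response. The 3 mitochondrial members had medians of 0.062, -0.0043 and 0.086, and the 5 members of the transcription factor group -0.027, 0.027 and -0.048. Cytosolic and ER medians lay on the same side of 0 in each region with all libraries. They did not without KI replicate 3 of the cerebellum (0.013 and -0.13) or WT replicate 3 of the striatum (0.034 and -0.066). Nor did they in the prefrontal cortex without its WT replicate 3 (0.102 and -0.00328). Opposite sides of 0 were also seen without KI replicate 4 of the cerebellum, where the cytosolic median was positive and the ER median negative. Without KI replicate 3 of the striatum the cytosolic median was -0.011 and the ER median positive.

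**Figure D4:**
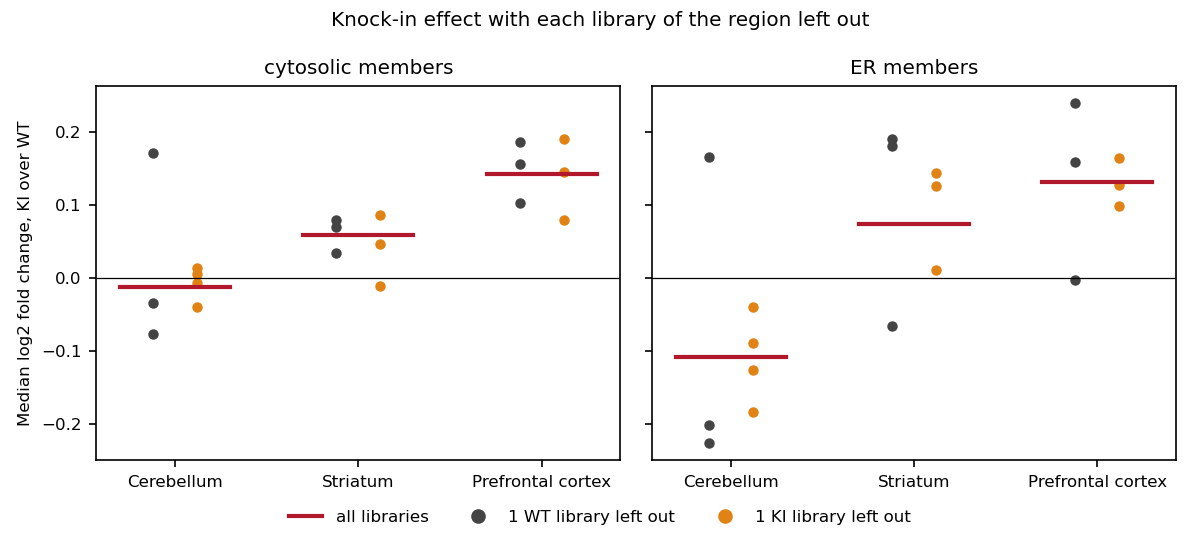
Median log2 fold change of the cytosolic and ER members (y axis) in each region (x axis) with all libraries (red lines) and with each WT or KI library of that region left out (points). The ER median of the cerebellum turns from -0.11 to 0.16 without 1 WT library, and the cytosolic median of the prefrontal cortex stays between 0.079 and 0.19.

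Other RNAs also set these libraries apart, and their part in the result was not tested. In bulk tissue, fewer cells of a type and less RNA per cell cannot be told apart. The summed level of 6 choroid plexus markers, all 6 of them tested, was 1970 CPM in WT replicate 1 of the cerebellum and 4955 CPM in KI replicate 3, and 12.0 to 34.98 CPM in the other cerebellar libraries, in some of which *Folr1* and *Aqp1* were at 0. In KI replicate 3 of the cerebellum *Hspa5* measured 529.7 CPM, against 728.3, 471.3 and 422.5 CPM in the other KI libraries. Among the KI libraries it was highest for 0 and lowest for 1 of 19 ER members. In the striatum the same sum was 1563 CPM in WT replicate 3, the library with low ER members, and 4273 to 9021 CPM in the others, and in the prefrontal cortex it was 16.5 to 53.0 CPM. The 9 immediate early genes summed to 373 CPM in WT replicate 1 of the cerebellum and 598 and 608 CPM in the other WT libraries. In WT replicate 3 they summed to 2465 CPM in the prefrontal cortex against 649 and 1731 CPM, and to 1736 CPM in the striatum against 522 and 1537 CPM. In the KI cerebellum, replicate 1, with high ER members, had 327 CPM, against 212, 598 and 458 CPM. In the other regions, KI replicate 3 was most often highest for ER members. Its sum was 2210 CPM in the prefrontal cortex against 677 and 1885 CPM, and 980 CPM in the striatum against 605 and 1685 CPM. Markers of neighbouring tissue also differed in the libraries with low ER members. The 6 cortical excitatory neuron markers summed to 254 CPM in WT replicate 3 of the striatum against 64.2 and 43.5 CPM in the other WT libraries, and to 1235 CPM in WT replicate 3 of the prefrontal cortex against 1982 and 1661 CPM. The 7 medium spiny neuron markers summed to 736 CPM in WT replicate 3 of the prefrontal cortex against 307 and 256 CPM. Microglial markers, of which 8 of 10 were called higher in the KI cerebellum, summed to 157 to 162 CPM in the WT and 236 to 321 CPM in the KI cerebellum, Purkinje cell markers to 6575 to 6778 and 4152 to 5935 CPM, and medium spiny neuron markers to 8931 to 10350 and 4664 to 6794 CPM in the WT and KI striatum. Of the Purkinje cell markers 1 of 6 was called lower in the KI cerebellum, and of the medium spiny neuron markers 0 of 7 in the KI striatum.

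*Hyou1*, an ER member of the HSP110 family, varied widely between libraries. It measured 75.2, 69.8 and 58.5 CPM in the WT cerebellum and 57.6, 25.9, 63.0 and 69.2 CPM in the KI cerebellum. Striatal values were 71.8, 108.7 and 30.1 CPM in WT and 39.1, 94.8 and 61.8 CPM in KI, and prefrontal values 66.4, 91.4 and 30.1 CPM in WT and 37.5, 99.9 and 81.8 CPM in KI. Libraries of the same number in the striatum and prefrontal cortex therefore had similar levels, and both genotypes held a low library. The highest library of *Hyou1* was that of *Hspa5* in 1 of 6 groups, and its lowest library was that of *Hspa5* in 5 of 6. On chromosome 9, near *Hyou1* at 44379490 to 44392369, *Sc5d* (42251595 to 42264256) and the nearer *Ift46* (44767908 to 44793447) were chosen after their values were seen. *Ift46* measured 50.9 CPM in KI replicate 2 of the cerebellum and 55.4 to 62.4 CPM in the other KI libraries. In WT replicate 3 it measured 39.2 CPM in the striatum, against 45.5 and 51.5 CPM in the other WT libraries. In the prefrontal cortex the values were 37.5 against 45.5 and 48.5 CPM. The lowest library of *Ift46* was that of *Hyou1* in every group, over a narrower range. *Sc5d* measured 103 CPM in KI replicate 2 of the cerebellum and 55.9 to 77.7 CPM in the other KI libraries, and 85.0 and 106 CPM in WT replicate 3 of the striatum and prefrontal cortex. The log2 fold change of *Hyou1* was -0.33 ± 0.45, -0.11 ± 0.48 and 0.22 ± 0.48 in the cerebellum, striatum and prefrontal cortex.

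The members of the transcription factor group were not called in any region. *Xbp1*, which the sensor IRE1 activates by splicing, measured 430.5, 205 and 204 CPM in the WT cerebellum and 312, 185, 242 and 209.8 CPM in the KI cerebellum, and its log2 fold changes were -0.24 ± 0.25, 0.21 ± 0.27 and 0.19 ± 0.27. Counts per gene do not separate spliced from unspliced *Xbp1*. *Atf4* had log2 fold changes of 0.015 ± 0.10, 0.22 ± 0.11 and 0.014 ± 0.11, and *Ddit3*, the proapoptotic factor CHOP, of 0.049 ± 0.12, 0.027 ± 0.12 and -0.048 ± 0.12, so that the 95% interval of *Ddit3* stayed within 1.5-fold in each region. *Atf6*, the sensor that is cleaved to become a transcription factor, measured 63.7, 73.0 and 58.6 CPM in the WT striatum and 49.7, 53.1 and 46.7 CPM in the KI striatum without overlap, a log2 fold change of -0.39 ± 0.15 (adjusted p = 0.462). Its mean over regions was -0.23 ± 0.086 (adjusted p = 0.263). *Trib3*, a target of ATF4 and CHOP, was between 0.375 and 3.34 CPM in every library, and its mean over regions was -0.43 ± 0.19 (adjusted p = 0.369).

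The KI effect did not differ detectably between regions for any member. By edgeR's test of the difference itself, 0 members passed for the cerebellum against the striatum, where 0.0119% of all tested genes did, 0 for the cerebellum against the prefrontal cortex (0.0178%) and 0 for the striatum against the prefrontal cortex (0%). At an unadjusted p under 0.05 there were *Hsf1* (difference of log2 fold changes -0.26 ± 0.11) and *Syvn1* (-0.28 ± 0.11) for the cerebellum minus the prefrontal cortex, *Dnajb2* (-0.30 ± 0.13) for the cerebellum minus the striatum and *Hspa4* (-0.25 ± 0.12) for the striatum minus the prefrontal cortex. Their adjusted p-values were at least 0.679.

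The regions themselves differed for many members in WT mice, though for a smaller share than of all genes. Between the cerebellum and the striatum 19 of 47 members passed (40.4%, against 56.5% of all genes), 7 higher and 12 lower in the cerebellum. Between the cerebellum and the prefrontal cortex it was 15 (31.9%, against 52%) and between the striatum and the prefrontal cortex 8 (17.0%, against 30.5%). *Hsph1* was lower in the cerebellum than in the striatum by a log2 difference of -1.64 (adjusted p = 1.11e-06) and than in the prefrontal cortex by -1.51 (adjusted p = 3.45e-06). *Hspa2*, an HSP70 best known from the testis, was lower by -0.95 and -1.47. *Bag3*, the co-chaperone that directs clients to autophagy, was higher in the cerebellum than in the striatum by 1.41 and than in the prefrontal cortex by 1.74. *Atf4* was higher in the cerebellum than in the striatum by 0.88 and lower in the striatum than in the prefrontal cortex by -0.79, and *Trib3* was higher in the striatum than in the prefrontal cortex by 1.63. Of the ER members, *Pdia4*, *Pdia6* and *Calr* were lower and *Syvn1* higher in the cerebellum than in the striatum, while the differences of *Hspa5* (-0.54 ± 0.30) and *Manf* (-0.28 ± 0.29) did not pass. If striatal and prefrontal libraries of the same number were joined as a random block, 13 members passed between these regions. The shares of all genes above are from edgeR without this block, so they are no background for that count.

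**Figure D5:**
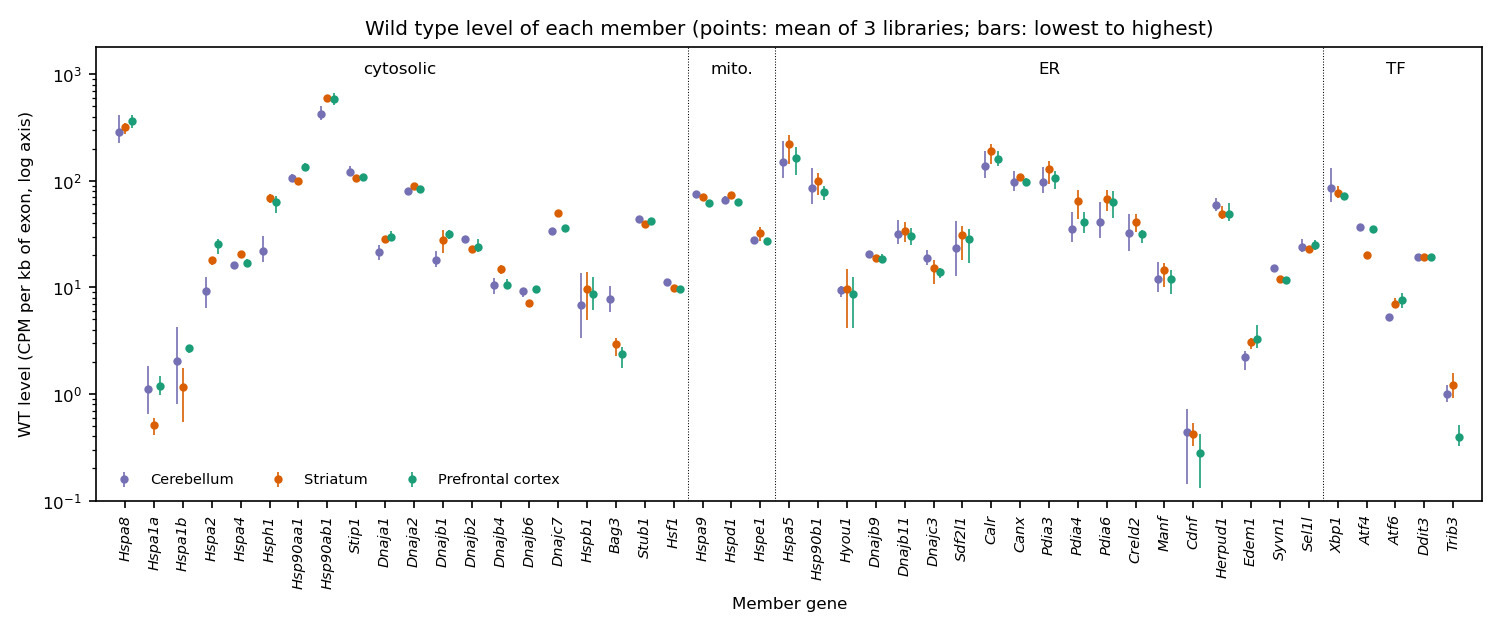
Level of each member in WT mice (y axis, CPM per kb of exon on a log scale; x axis, member gene), with points for the mean of 3 libraries and bars from the lowest to the highest. *Hsp90ab1*, *Hspa8* and *Hspa5* have the highest means in all 3 regions, with *Calr* level with *Hspa5* in the prefrontal cortex, and *Cdnf* ranks last.

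Per kilobase of exon, *Hsp90ab1* was the most abundant member in WT mice, with 425 ± 67.9 CPM per kb (SD, n = 3) in the cerebellum, 602 ± 12.7 in striatum and 583 ± 79.7 in prefrontal cortex. *Hspa8* followed with 289.9, 319.6 and 365 CPM per kb, and *Hspa5* with 151, 219 and 162. The SDs of *Hspa8* and *Hspa5* in the cerebellum were 110.0 and 72.4 CPM per kb, so these neighbours in the order overlapped there. In the prefrontal cortex *Calr*, at 161.7 CPM per kb, was level with *Hspa5* at 161.9. Within the other roles, *Dnaja2* was the highest and *Dnajb6* the lowest HSP40, *Calr* the highest and *Creld2* the lowest of the lectins and disulfide isomerases, and *Herpud1* the highest and *Edem1* the lowest of the degradation factors. *Manf* had 12.0 ± 4.72, 14.6 ± 3.95 and 12.0 ± 2.95 CPM per kb, against 0.443, 0.422 and 0.277 for *Cdnf*. *Xbp1* was the highest and *Trib3* the lowest of the transcription factor group.

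Further genes of these pathways were counted in 8 lists. None of 20 tested genes of the integrated stress response, 22 other ER folding genes, 17 other ER degradation genes, 13 subunits of the chaperonin TRiC and prefoldin, 14 genes of ubiquitin and aggregate clearance, or 11 mitochondrial chaperones and proteases passed the adjusted threshold in edgeR in any region or in the mean over regions. Their median log2 fold changes in the cerebellum were 0.078, 0.030, 0.036, 0.076, 0.019 and 0.039. TRiC and prefoldin members, which fold actin and tubulin, were positive in 11 of 13 cases in the cerebellum, 10 in striatum and 11 in prefrontal cortex, with *Cct3* at 0.13 ± 0.037 and *Cct8* at 0.11 ± 0.035 in the mean over regions (adjusted p = 0.106 and 0.152). Members of the lists with the smallest unadjusted p in a region were *Psat1* (0.41 ± 0.15, cerebellum) and *Shmt2* (0.22 ± 0.086, striatum) of the integrated stress response, *Sec61a1* (-0.20 ± 0.071, cerebellum) of ER folding, *Os9* (0.22 ± 0.080) and *Selenos* (-0.28 ± 0.10) of ER degradation in the cerebellum, *Gabarapl1* (0.17 ± 0.084, cerebellum) of clearance and *Trap1* (0.19 ± 0.079, prefrontal cortex) of the mitochondria. With DESeq2 on each region alone, *Psat1* (adjusted p = 0.0352), *Phgdh* (0.0371), an enzyme of serine synthesis in the same list as *Psat1*, and *Os9* (0.0364) passed in the cerebellum and *Fkbp4* (0.0377), a co-chaperone of HSP90, in the striatum, and with DESeq2 on 6 groups *Cct8* (0.0490) passed in the cerebellum. The shares of all genes given above are from edgeR, so they are no background for calls by DESeq2. Of 29 other cytosolic chaperones, *Sugt1*, a co-chaperone of HSP90, passed in the mean over regions, with 0.23 ± 0.046 (edgeR adjusted p = 0.0183), and 0 passed in a single region by edgeR. Its adjusted p was 0.0504 without the filter on low counts and 0.0501 without WT replicate 2 of the cerebellum. This mean, too, was fitted without a block for libraries that may come from the same mice.

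Calls in single regions fell on 1 of the 11 tested stress sensor genes, a kinase. *Eif2ak2*, on chromosome 17 from 78852564 to 78882573, encodes PKR, a kinase of eIF2 that responds to double-stranded RNA and is induced by interferon. It measured 5.91, 6.09 and 4.21 CPM in the WT cerebellum and 16.3, 15.2, 15.1 and 13.9 CPM in the KI cerebellum. In the striatum the values were 6.68, 5.05 and 5.18 against 13.0, 12.3 and 15.3 CPM, and in the prefrontal cortex 4.11, 5.97 and 6.88 against 8.06, 9.67 and 10.7 CPM. KI libraries lay above WT libraries in all 3 regions. The level was 2.79 times WT in the cerebellum (log2 1.48 ± 0.19, adjusted p = 0.000333), 2.398 in striatum (1.26 ± 0.19, adjusted p = 0.00376) and 1.67 in prefrontal cortex (0.74 ± 0.19, adjusted p = 0.399). Of its relatives, *Eif2ak3*, which encodes the ER stress sensor PERK, had 0.44 ± 0.12 in the cerebellum (edgeR adjusted p = 0.122). It passed there with DESeq2, on 6 groups (adjusted p = 0.0249) and on each region alone (adjusted p = 0.00629), and with the random replicate blocks of genotype and number (adjusted p = 0.0423) and of striatum and prefrontal cortex (adjusted p = 0.0480). *Eif2ak2* is no member, and it is given because it passed in a list counted beside the members.

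*Tbp*, the gene that carries the expansion, lies on the same chromosome from 15499888 to 15528379. It measured 60.9, 52.5 and 62.0 CPM in the WT cerebellum and 52.2, 54.3, 48.5 and 56.6 CPM in the KI cerebellum, with log2 fold changes of -0.14 ± 0.097, -0.12 ± 0.11 and -0.15 ± 0.11 in the cerebellum, striatum and prefrontal cortex. These counts do not separate the mutant from the WT allele, so they do not check the genotype labels.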

How the data were processed

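RNA was measured in 19 libraries of 6 groups of region and genotype, made with the SMART-Seq v4 and Nextera XT kits. The authors deposited raw counts per gene and a normalized table whose signal values are those counts divided by 1 size factor per library. Their processing notes name bcl2fastq 2.17.1.14, STAR 2.5.2b, HTSeq, DESeq2 1.10.1 and the build GRCm38.p3. The strand setting and annotation release are not given in the sources used here, so overlapping and antisense genes cannot be told apart.

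Counts were tested with edgeR 4.0.16 in R 4.3.3: TMM scaling, filterByExpr, 1 quasi-likelihood fit of all 6 groups (13 residual degrees of freedom) and Benjamini-Hochberg adjustment over 16841 genes at 0.05. Intervals are 95%. Spread was computed on log2 CPM with a prior count of 2. Levels between genes were divided by the GENCODE M21 exon length. DESeq2 1.42.0, limma 3.58.1, other scalings and filters, a sex covariate, replicate blocks and each library left out were alternatives. Scripts were tested on simulated data.

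The members and lists were chosen with earlier results of these data known. Named were *Manf*, *Hspa5* and 12 other members chosen by role, members with an unadjusted p under 0.05, the highest and lowest of each role, genes leading each pathway list, and *Tbp*. Other names were chosen after their values were seen.

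Same-numbered KI and WT libraries of a region had correlations of deviations from -0.245 to 0.172, so the numbers do not pair genotypes. Same-numbered striatal and prefrontal libraries had 0.233 to 0.368 in all 6 pairs, so their numbers may mark the same mice, which the labels do not say. The fit reported has no block, and the block is an alternative.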

Additional observations from a re-analysis of the deposited data

Results flagged for a closer look

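In the 4 KI libraries of the cerebellum, the only group large enough for a check of single libraries, 2 of 47 members had 1 library far from the others. *Hspa4*, an HSP110-type partner of HSP70, measured 107.1 CPM in KI replicate 1, and *Dnaja2*, an HSP40, measured 289.2 CPM in the same library. The gap to the nearest library was 0.97 and 0.89 of the range, above Dixon's 95% critical value for 4 values. Chance sets apart about 1 in 20 groups in this way.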

How the results depend on the processing

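Over the alternatives run, 573 values that answer a comparison were scored as unchanged and 11 as moved. This score did not count the changes of sign of the ER medians without single WT libraries, given above. With DESeq2 on 6 groups, 1 member (*Hsp90aa1*) passed in the mean over regions and 3 pathway genes passed in a region, against 6 with DESeq2 in each region alone and 2 with either random replicate block. With a replicate block within regions, 11 members passed between the WT cerebellum and striatum and 5 between the WT striatum and prefrontal cortex, and with the random block of striatum and prefrontal cortex it was 13. The shares of all genes given above are from edgeR without a block, so they are no background for these counts. Under each replicate block 0 members passed between genotypes, and the ER median in the cerebellum was 0.0034 within regions. The causes were not tested.

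With each library left out, the cytosolic median in the cerebellum ranged from -0.076 to 0.17, *Manf* from -0.47 to 0.10 in the cerebellum and -0.045 to 0.34 in the striatum (-0.00363 without KI replicate 3), and *Hspa5* from -0.44 to 0.22 and -0.066 to 0.34. The WT count between striatum and prefrontal cortex ranged from 5 (without prefrontal WT replicate 3) to 12 (without cerebellar WT replicate 1). For these counts, too, the shares of all genes given above are no background. With the 3 WT libraries left out together, chosen after seeing the data, the cytosolic cerebellar median was 0.17, *Manf* had 0.10 and -0.045 and *Hspa5* 0.22 and -0.066 in the cerebellum and striatum. *Sugt1* had an adjusted p of 0.0504 without the filter and 0.0501 without cerebellar WT replicate 2. Depth limits *Cdnf* and *Trib3*, whose lowest libraries held 4 and 5 counts.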
